A study of Mus musculus with 24 samples.

Results

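The 8 genes described here encode the pores of voltage-gated calcium channels. They are Cacna1a (Cav2.1), Cacna1b (Cav2.2), Cacna1c (Cav1.2), Cacna1d (Cav1.3), Cacna1e (Cav2.3), Cacna1g (Cav3.1), Cacna1h (Cav3.2) and Cacna1i (Cav3.3). They were chosen by gene symbol, and all 8 were found among the 20782 genes of the deposited expression table. RNA sequencing had been done on mouse lumbar dorsal root ganglia (DRG), home to the somata of sensory neurons, in 24 libraries, 3 for each of 8 groups. Adult ganglia had been dissociated, plated on laminin and collected 6, 12, 24 or 36 h after plating. Other adult animals had undergone a peripheral lesion or a sham operation, and their L4 and L5 ganglia were taken. Embryonic ganglia were of ages E17.5 and E12.5. No strain, sex, genotype or number of animals per library was given for any group, nor the interval between the operation and collection. The labels call every library DRG neuron and attach 1 text on culture and cell sorting to all of them. P-values therefore measure the spread between libraries, which may be partly technical.

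Pore subunits are large membrane proteins that open on depolarization and let calcium into the cell. The Cav2 pores (Cav2.1 of P/Q-type, Cav2.2 of N-type and Cav2.3 of R-type channels) sit largely at nerve terminals and trigger transmitter release. Of these the N-type channel is prominent in sensory neurons and is the target of the analgesic ziconotide. The Cav1 pores (Cav1.2 and Cav1.3) form L-type channels, which act mainly at the cell body and couple activity to transcription. Cav1.2 is also the main calcium channel of smooth muscle. The Cav3 pores (Cav3.1, Cav3.2 and Cav3.3) form T-type channels, which open at low voltage and set excitability, and Cav3.2 is the best known of them in sensory neurons. Beta and alpha2delta subunits assemble with Cav1 and Cav2 pores and carry them to the membrane.

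Promoter windows of 300 bases, 250 before and 50 after the annotated start (RefSeq, GRCm38.p6), were at hand for 5 of the 8 genes, some with several starts and 8 windows in all. Of these windows, 3 are printed 5′ to 3′ on the gene's strand. They are those of Cacna1b, the pore gene with the highest level in most groups, and of Cacna1i and Cacna1e, which had the largest falls in culture. The window of Cacna1b lies at chr2:24763103-24763402 on the minus strand, Cacna1i at chr15:80286988-80287287 on the plus strand and Cacna1e at chr1:154725871-154726170 on the minus strand, at a start inside the span that GENCODE gives the gene. Capitals mark matches, on either strand, to the GC box GGGCGG or the CCAAT box CCAAT. None of the matches overlap.
Cacna1b: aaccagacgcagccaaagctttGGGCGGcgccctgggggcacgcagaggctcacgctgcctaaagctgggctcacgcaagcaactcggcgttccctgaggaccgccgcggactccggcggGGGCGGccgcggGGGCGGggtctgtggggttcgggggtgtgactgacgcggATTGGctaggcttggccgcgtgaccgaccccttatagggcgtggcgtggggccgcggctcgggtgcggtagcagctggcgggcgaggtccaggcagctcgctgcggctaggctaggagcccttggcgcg
Cacna1i: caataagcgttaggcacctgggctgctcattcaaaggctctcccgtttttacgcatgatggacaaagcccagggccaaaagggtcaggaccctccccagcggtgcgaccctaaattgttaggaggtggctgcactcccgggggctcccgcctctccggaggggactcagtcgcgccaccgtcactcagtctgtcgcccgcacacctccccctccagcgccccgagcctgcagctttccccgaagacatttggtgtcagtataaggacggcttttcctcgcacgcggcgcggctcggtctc
Cacna1e: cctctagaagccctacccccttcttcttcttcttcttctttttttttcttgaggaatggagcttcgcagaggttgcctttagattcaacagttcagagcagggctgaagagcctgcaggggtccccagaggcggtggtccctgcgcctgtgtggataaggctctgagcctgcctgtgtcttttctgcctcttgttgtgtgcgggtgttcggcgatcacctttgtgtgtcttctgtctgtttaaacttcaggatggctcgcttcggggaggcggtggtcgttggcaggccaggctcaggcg
The Cacna1b window held 3 GC boxes and 1 CCAAT box, and 35 CG dinucleotides at 72.3% G and C. The Cacna1i window had 23 CG dinucleotides at 62.7% G and C, and the Cacna1e window 11 at 55.3%, against medians of 7 and 52.7% over all 32851 windows of the table. Neither of these held a match to the GC box or the CCAAT box, which were found in 35.7% and 37.4% of all windows. The AP-1 site TGANTCA, the cyclic AMP response element TGACGTCA and the E-box CACGTG were found in 7.81%, 1.79% and 7.15% of all windows. None of these letters stood in the 8 windows of the pore genes.

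Expression is given as normalized read count, which is the read count of a gene divided by 1 factor per library. The libraries held between 3.10 and 25.7 M recovered reads, and replicates correlated at r = 0.956 to 0.992 (log2 scale, across genes). Neuron markers were high in every group, with summed values of 270829 in the highest library (lesion) and 49437 in the lowest (E12.5). Schwann cell markers were measured in the same libraries and summed to 24517 to 32979 at 6 h of culture and 73808 to 92110.5 after sham surgery. Cacna1f and Cacna1s, the other pore genes of the family, were near 0, with group means of at most 1.47 and 9.62.

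A gene is called changed where limma gave a Benjamini-Hochberg adjusted p under 0.05, on log2(value + 1), over all genes tested in that comparison. Log2 differences are given ± SE. At E17.5 against E12.5, Cacna1a, Cacna1b, Cacna1c and Cacna1d rose and Cacna1e and Cacna1g fell. These are 4 and 2 of 8 pore genes, where 31.1% of all 14550 genes tested rose and 31.9% fell. After sham surgery against E17.5, Cacna1i rose, and Cacna1b, Cacna1d, Cacna1e, Cacna1g and Cacna1h fell. Here 28.9% of 14652 genes rose and 31.1% fell. After lesion, Cacna1b and Cacna1d rose against sham and 0 of 8 pore genes fell by limma, edgeR or DESeq2 (0 also at an unadjusted p under 0.05 by limma), where 20.9% of 14556 genes rose and 20.2% fell. At 6 h in culture against sham, Cacna1a, Cacna1b, Cacna1c, Cacna1e and Cacna1i rose and Cacna1g and Cacna1h fell. Cacna1g reached the minimum for a test there only through its sham libraries, so its call is given as a description. Of all 14566 genes, 27.6% were called higher and 30.7% lower. At 36 h of culture against 6 h, Cacna1d and Cacna1h rose and Cacna1b, Cacna1e and Cacna1i fell, of 7 pore genes tested, where 25.3% of 15006 genes rose and 25.3% fell. No share of so few genes is read as particular to the family. The medians of the log2 differences were 0.85 for the pore genes and -0.05 for all genes tested at E17.5 against E12.5. They were -1.06 and -0.03 for sham against E17.5, and 0.24 and -0.01 for lesion against sham. For 6 h against sham they were 0.55 and -0.06, and for 36 h against 6 h -0.34 and 0.02.

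**Figure D1:**
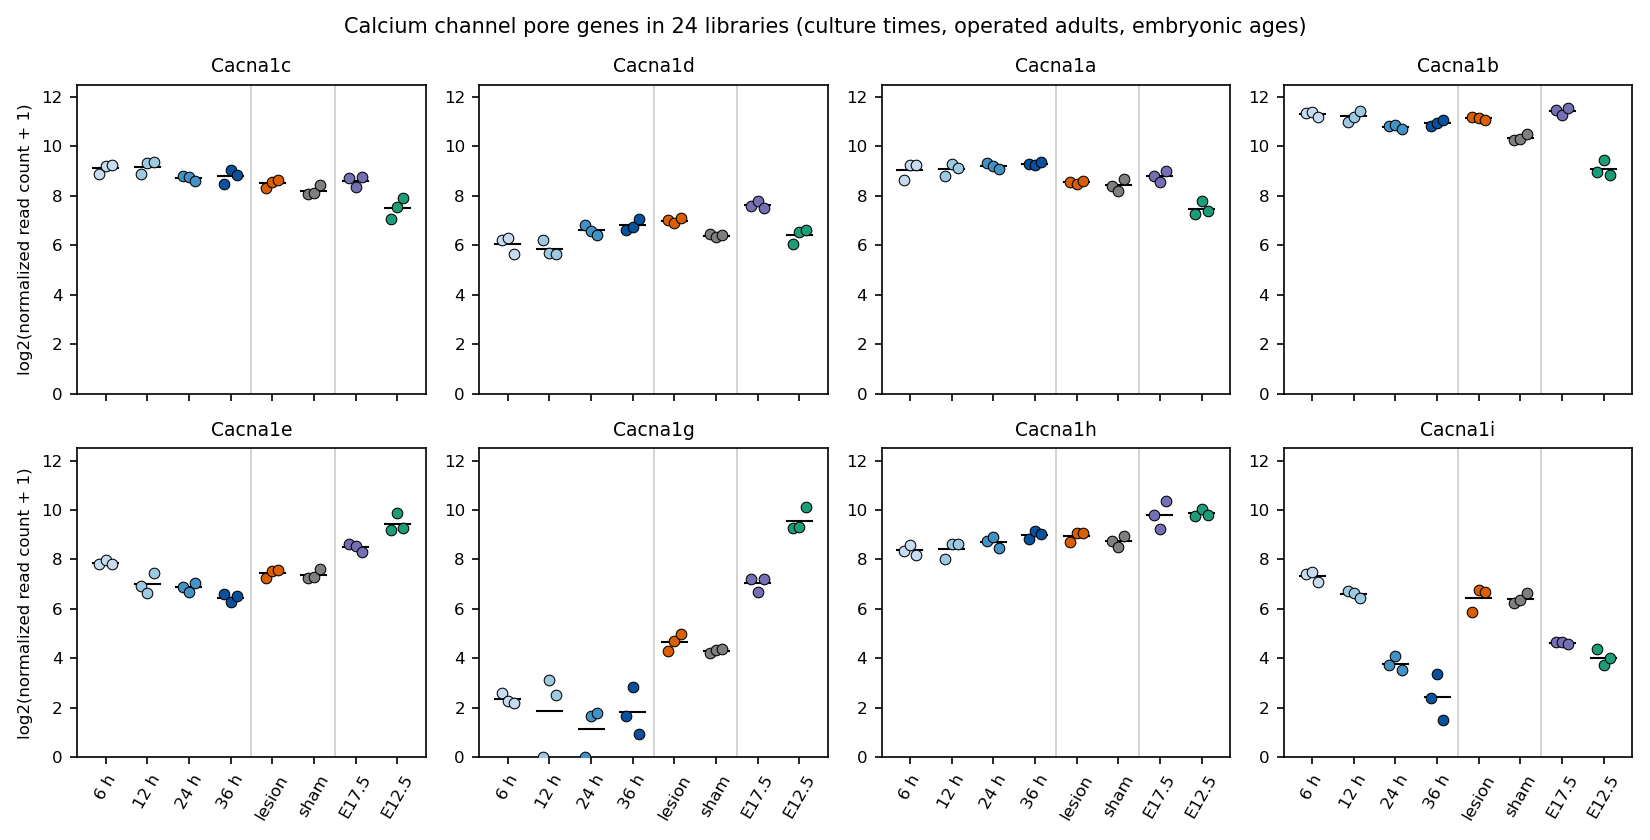
Level of each pore gene, as log2(normalized read count + 1), in each library (points) with the mean of its group (line), from culture times through operated adults to embryonic ages. Cacna1g is high at E12.5 and near 0 in culture, and Cacna1i drops between 12 and 24 h. Cacna1b is lowest at E12.5 and lies above the other pore genes in all other groups.

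Cacna1b (chr2:24603887-24763152, minus strand; mm10, as for all genes here), the N-type pore, was the pore gene that changed in the most comparisons. It had 2819, 2448 and 3001 normalized reads in the 3 E17.5 libraries, against 492, 699 and 464 in the E12.5 libraries. The 3 lesion libraries had 2361, 2248 and 2162, against 1227, 1249 and 1442 after sham surgery. At 6 h of culture it stood at 2572, 2679 and 2341, at 12 h at 2046, 2344 and 2772, at 24 h at 1795, 1836 and 1661 and at 36 h at 1834, 1949 and 2134. In these values E17.5 lay above E12.5, lesion above sham and 6 h above sham, with no overlap between the groups compared. Every E12.5 library lay below every library of all other groups. In the order of group means, E17.5, 6 h, 12 h and lesion each overlapped with the next, and so did 36 h and 24 h, while sham and then E12.5 stood apart below them. It rose at E17.5 against E12.5 (log2 difference 2.34 ± 0.17, adjusted p = 7.76e-06) and was lower after sham surgery than at E17.5 (log2 difference -1.07 ± 0.11, adjusted p = 4.23e-05). After lesion it rose against sham (log2 difference 0.79 ± 0.08, adjusted p = 5.46e-06), which placed it above 93.5% of all genes tested. In culture at 6 h it was higher than after sham (log2 difference 0.95 ± 0.10, adjusted p = 2.2e-06). The lesion call held in all 14 alternatives tried, with differences of 0.75 to 0.86 on the log2 scale.

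Within the culture, Cacna1b was lower at 36 h than at 6 h (log2 difference -0.36 ± 0.12, adjusted p = 0.0231). The step was between 12 and 24 h (log2 difference -0.43 ± 0.12, adjusted p = 0.0349), while 12 h against 6 h gave an interval of -0.35 to 0.17 and 36 h against 24 h one of -0.10 to 0.42. Leaving out 12 h replicate 2 or 3 or any 24 h replicate took the 24 h call away, with adjusted p up to 0.15, and the 36 h call was lost without 6 h replicate 1 or 2 or 36 h replicate 1 or 2, with adjusted p up to 0.086.

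Cacna1a (chr8:84388440-84640246, plus strand), the P/Q-type pore, had its lowest mean at E12.5 and its highest in culture. It averaged 444 ± 66.8 at E17.5 and 180.2 ± 37.0 at E12.5 (SD, n = 3 in each group here and below), with no overlap (log2 difference 1.30 ± 0.19, adjusted p = 0.000363). At 6 h of culture it had 396, 602 and 606 normalized reads, against 337, 288 and 413 after sham surgery, groups that overlapped although the gene was called higher (log2 difference 0.62 ± 0.17, adjusted p = 0.00752). The means over 6, 12, 24 and 36 h were 535, 544, 594 and 627, without a call over the course (limma F test, adjusted p = 0.514). Lesion (375 ± 17.8) and sham (346 ± 63.3) gave a log2 difference with a 95% interval of -0.12 to 0.39, and sham against E17.5 one of -0.74 to 0.01. Both were without a call, although sham against E17.5 was called lower without sham replicate 3 (adjusted p = 0.0442) or E17.5 replicate 2 (adjusted p = 0.0238). In the order of group means, 36 h, 24 h, 12 h, 6 h, E17.5, lesion and sham each overlapped with the next, and E12.5 lay below them all. In the mm10 annotation 435 bases (3.81%) of the Cacna1a exons overlap with Gm16183 on the opposite strand. Gm16183 is not among the genes measured here, and the part of its reads in the values of Cacna1a was not tested.

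Cacna1e (chr1:154390731-154884501, minus strand), the R-type pore, ran against the other Cav2 genes in the embryo. It had 392, 374 and 319 normalized reads at E17.5, against 583, 949 and 613 at E12.5, and fell (log2 difference -0.95 ± 0.20, adjusted p = 0.00297). Sham-operated adults had 149.6, 158 and 197, lower than every E17.5 library (log2 difference -1.11 ± 0.15, adjusted p = 0.000225). Lesion libraries, at 151, 185 and 191, overlapped with sham, and the interval of their difference was -0.23 to 0.36. The level was highest at E12.5, then E17.5, then in the adult, with no overlap between these 3 steps. In culture it had 227, 249.6 and 226 at 6 h, 121, 99.9 and 172 at 12 h, 118, 102 and 130.4 at 24 h and 95.9, 76.0 and 90.5 at 36 h. Lesion, sham, 12 h and 24 h, neighbours in the order of group means, each overlapped with the next. All 36 h libraries lay below all 24 h libraries, and all 12 h libraries below all 6 h libraries. The 6 h cultures stood above sham (log2 difference 0.48 ± 0.15, adjusted p = 0.0114), a call that was lost without sham replicate 1 (adjusted p = 0.0696) or 2 (adjusted p = 0.0514). At 36 h the gene was lower than at 6 h (log2 difference -1.41 ± 0.21, adjusted p = 4.26e-05). Of the single steps 12 h against 6 h was called (log2 difference -0.87 ± 0.21, adjusted p = 0.0142), where 5.86% of all genes rose and 4.72% fell, and Cacna1e was the only pore gene called there by limma. None was called higher at that step by limma, edgeR or DESeq2, and none reached an unadjusted p under 0.05 in that direction by limma. Without 12 h replicate 2, the lowest of its group, that step had an adjusted p of 0.0731.

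Among the L-type pores, Cacna1c (chr6:118587240-119196418, minus strand) differed between the embryonic ages and between culture and sham. It averaged 392 ± 58.6 at E17.5 and 186 ± 52.6 at E12.5 (log2 difference 1.10 ± 0.23, adjusted p = 0.0027). At 6 h of culture it had 475, 591 and 610.0 normalized reads, against 268, 275 and 346 after sham surgery, with no overlap (log2 difference 0.91 ± 0.14, adjusted p = 5.55e-05). Its lesion libraries had 317, 379 and 394, which overlapped with sham, and the log2 difference had an interval of 0.04 to 0.55 (adjusted p = 0.0597). That difference passed the threshold without lesion replicate 1 (adjusted p = 0.0243), without sham replicate 3 (adjusted p = 0.0157) and with a term for the number series in the library titles (adjusted p = 0.0378). Markers of vascular smooth muscle and pericytes, cells that use its channel, summed to 1650.2 to 2198 after lesion and 1828 to 2186 after sham, ranges that overlap. They summed to 1612 to 2033 at 6 h of culture, also in overlap with sham, and none of the 7 was at 0. One by one they did move at 6 h, with 4 of 6 tested lower and 1 higher (median log2 difference -1.64, against -0.06 over all genes tested), and their part in the rise of Cacna1c was not tested. Over the 4 culture times Cacna1c had an adjusted p of 0.0636 in limma's F test, with means of 445 ± 80.8 at 36 h and 559 ± 73.2 at 6 h. Its 24 h libraries (443, 437 and 388) all lay below its 12 h libraries (471, 635 and 650.3), without a call (adjusted p = 0.0921). DESeq2 called that step (adjusted p = 0.0296), as did limma without 12 h replicate 1 (adjusted p = 0.0147). Sham against E17.5 gave an interval of -0.76 to -0.04 (adjusted p = 0.0516) and was called lower by edgeR (adjusted p = 0.0478), without sham replicate 3 (adjusted p = 0.0369) and without E17.5 replicate 2 (adjusted p = 0.00608). Its groups overlapped in turn from 12 h, the highest mean, over 6 h, 36 h, 24 h, E17.5 and lesion down to sham, and E12.5 lay below them.

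Cacna1d (chr14:30039939-30491455, minus strand), the pore of the L-type channel that opens at more negative voltages, rose after lesion, as did Cacna1b. Its lesion libraries had 128, 117 and 136 normalized reads, against 85.6, 79.0 and 83.7 after sham surgery, with no overlap (log2 difference 0.61 ± 0.13, adjusted p = 0.00235). This rise was called in all 14 alternatives, with adjusted p from 0.00167 to 0.0427. At E17.5 it had 189, 222 and 180.4, against 65.9, 92.5 and 98.0 at E12.5 (log2 difference 1.21 ± 0.20, adjusted p = 0.000852), and sham lay below E17.5 (log2 difference -1.24 ± 0.15, adjusted p = 0.000112). E17.5 was its highest group, and no other group overlapped with it. In culture it had 72.6, 77.5 and 49.4 at 6 h, 74.0, 51.2 and 48.5 at 12 h, 113, 93.2 and 84.2 at 24 h and 98.1, 107 and 134 at 36 h. The 2 early times overlapped with each other, as did the 2 late ones, and the late ones lay above. It was higher at 36 h than at 6 h (log2 difference 0.77 ± 0.24, adjusted p = 0.0163), without a call if 6 h replicate 3 (adjusted p = 0.0804) or 36 h replicate 3 (adjusted p = 0.0715) was left out. The step at 24 h against 12 h was not called by limma (adjusted p = 0.0616) but was by edgeR (adjusted p = 0.0273), by DESeq2 (adjusted p = 0.0148) and by limma without 12 h replicate 1 (adjusted p = 0.0176). At 6 h against sham the interval was -0.78 to 0.11. In the order of group means, lesion, 36 h, 24 h, E12.5 and sham each overlapped with the next. In the mm10 annotation 589 bases (4.67%) of the Cacna1d exons overlap with exons of Chdh on the opposite strand. Chdh averaged 221 normalized reads after lesion and 183 after sham, but 18.5 at 6 h and 9.03 at 36 h. Whether reads were counted by strand is not given, and the part of such reads in the values of Cacna1d was not tested.

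Of the T-type pores, Cacna1g (chr11:94408391-94474198, minus strand) was the one with its highest level at E12.5 by far. It had 148, 102 and 148 normalized reads at E17.5, against 622, 632 and 1102 at E12.5. Lesion libraries had 18.6, 25.0 and 30.6, against 17.7, 19.0 and 20.1 after sham surgery. The order was E12.5 above E17.5 above both adult groups, with no overlap except between lesion and sham. It fell at E17.5 against E12.5 (log2 difference -2.52 ± 0.25, adjusted p = 4.24e-05) and was lower again after sham surgery than at E17.5 (log2 difference -2.73 ± 0.23, adjusted p = 9.32e-06). The first difference was -2.25 without E12.5 replicate 3, the highest library. The lesion and sham groups gave an interval of -0.22 to 0.91. Age, surgery, ganglion level and library number series differ together between sham and E17.5 and cannot be told apart. Markers of dividing cells fell in 6 of 6 after sham surgery against E17.5, with sums of 240.3 to 356 after sham and 2775 to 3979 at E17.5, and fibroblast and endothelial markers each in 4 of 6. Of the fibroblast markers 1 rose. Schwann cell markers rose in 6 of 7 and satellite glia markers in 4 of 6, and neuron markers rose in 4 of 12 and fell in 3. Peptidergic nociceptor markers rose in 4 of 6 and large-fibre neuron markers in 4 of 7. Nonpeptidergic nociceptor markers rose in 4 of 6 and fell in 2, and those of C low-threshold mechanoreceptors rose in 2 of 4 and fell in 2. The part of these cells in the differences of the pore genes between sham and E17.5 was not tested.
Beside this, markers of dividing cells (6 of 6 fell at E17.5) summed to 2775 to 3979 at E17.5 and 19966 to 21767 at E12.5. Markers of spinal cord neurons and precursors (7 of 8 tested fell) summed to 24.5, 152 and 43.9 in the 3 E17.5 libraries, where Mnx1 was at 0, and to 1689.6, 1338 and 755 in the 3 E12.5 libraries. The E12.5 library with the most Cacna1g, replicate 3, had the lowest of these spinal cord sums. It also had the lowest E12.5 sums of dividing cell markers (19966) and of neuron markers (49437). Neuron markers moved the other way, with 9 of 12 higher and 1 lower at E17.5 and sums of 147450.2 to 161705 at E17.5 and 49437 to 79438 at E12.5. Markers of nonpeptidergic and peptidergic nociceptors each rose in 6 of 6, and Schwann cell markers in 6 of 7. The part of these cells in the embryonic differences of all pore genes was not tested. Age and library number series also differ together between E17.5 and E12.5 and cannot be told apart, and in bulk RNA fewer cells of a type and less RNA per cell cannot be told apart.

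In culture Cacna1g was near the limit of detection. It had 5.08, 3.85 and 3.53 normalized reads at 6 h, from 7, 7 and 1 recovered reads, and every one lay below every sham library (17.7 to 20.1). The gene passed the minimum for this test through the sham libraries alone. The call of lower by limma (log2 difference -1.96 ± 0.40, adjusted p = 0.000645) is therefore a description and not further support. With no minimum limma also called it lower. Over the alternatives the difference was between -2.11 (edgeR on recovered reads) and -1.03 (pseudocount of 10 in place of 1). At 12 h it had 0, 7.80 and 4.78, at 24 h 0, 2.20 and 2.43 and at 36 h 2.16, 6.20 and 0.923, from at most 16 reads in a library. The library at 0 at 12 h was shallow, and 0 reads there allow a value of up to 11.7 (3 reads, counting error only). The library at 0 at 24 h allows up to 7.38. The gene was below the minimum for a test in culture, which was a value of at least 10 in at least 3 libraries, so no change over time was detectable at this depth. Schwann cell markers fell too at 6 h against sham (6 of 7 called lower), and so did 6 of 6 fibroblast markers, which summed to 2211 to 2715 at 6 h and 7800.0 to 10125 after sham. Satellite glia markers fell in 6 of 6, with sums of 19182 to 21193 at 6 h and 44800.3 to 53094 after sham, and macrophage markers in 4 of 6. Of 12 neuron markers 7 fell and 1 rose, with sums of 157689 to 179180.4 at 6 h and 247104 to 267243 after sham. Large-fibre neuron markers fell in 4 of 7, while nonpeptidergic and peptidergic nociceptor markers each rose in 4 of 6 and fell in 1 and 2. Endothelial markers rose in 3 of 6 and fell in 1. The part of these cells in the differences of all pore genes between 6 h and sham was not tested. Surgery, ganglion level, dissociation and library series differ together between these 2 groups and cannot be told apart.

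Cacna1h (chr17:25374285-25433783, minus strand), the T-type pore best known in sensory neurons, stayed within a 2.81-fold range of group means, the narrowest of the 8 genes. It had 902, 596 and 1302 normalized reads at E17.5, against 875, 1048 and 890.3 at E12.5, which overlapped, and the log2 difference had an interval of -0.65 to 0.50. Sham-operated adults, at 433, 366 and 495, all lay below E17.5 (log2 difference -1.05 ± 0.25, adjusted p = 0.00521). Lesion libraries, at 413, 534 and 531, overlapped with sham, with an interval of -0.08 to 0.47. In culture the gene had 322, 386 and 293 at 6 h, 261, 391 and 398 at 12 h, 425, 474 and 352 at 24 h and 452, 566 and 528 at 36 h. In the order of group means, E12.5 and E17.5 overlapped, and so did each neighbour from 36 h over lesion, sham, 24 h and 12 h to 6 h. Every 36 h library lay above every 6 h library, and the rise was called (log2 difference 0.63 ± 0.18, adjusted p = 0.00911), while none of the 3 single steps was. At 6 h it was called lower than after sham (log2 difference -0.37 ± 0.14, adjusted p = 0.039) in groups that overlapped. That call was lost in 8 of 13 alternatives, among them DESeq2 (adjusted p = 0.0923) and leaving out sham replicate 3 (adjusted p = 0.197), sham replicate 1 (adjusted p = 0.108) or 6 h replicate 1 (adjusted p = 0.0925) or 3 (adjusted p = 0.0916). In the annotation 158 bases (1.62%) of its exons overlap with Tpsg1 on the opposite strand.

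Cacna1i (chr15:80287238-80398279, plus strand), the Cav3.3 pore, was higher in adult than in embryonic ganglia and fell in culture. It had 24.0, 24.7 and 23.1 normalized reads at E17.5, against 19.8, 12.2 and 15.1 at E12.5, without overlap and without a call (interval -0.11 to 1.31). These values stood on 55, 7 and 10 recovered reads at E17.5 and 36, 19 and 21 at E12.5. Their counting error is therefore large, and the narrow spread at E17.5 is no measure of it. Sham-operated adults had 73.8, 81.9 and 99.2, above every embryonic library (log2 difference 1.77 ± 0.22, adjusted p = 0.000106 against E17.5). Lesion libraries had 57.3, 109 and 102, with replicate 1 below and the other 2 above all sham libraries, and an interval of -0.46 to 0.52. In culture the level was highest at 6 h, with 169, 180.3 and 134, above sham (log2 difference 0.92 ± 0.18, adjusted p = 0.00051). It was 105, 99.9 and 86.8 at 12 h, 12.3, 16.3 and 10.5 at 24 h and 4.31, 9.30 and 1.85 at 36 h. Each of these times lay below the one before with no overlap. The 12 h, lesion and sham groups overlapped in turn, as did E12.5 and 24 h. At 24 h the gene stood on 5, 37 and 13 recovered reads and at 36 h on 4, 6 and 2. Its levels there carry a large counting error, and the separation of 24 h from 36 h rests on few reads. The fall to 36 h was the largest change of any pore gene in any comparison (log2 difference -4.90 ± 0.39, adjusted p = 1e-07), with 0.1% of all genes tested having a lower value. Leaving out any 1 library gave differences of -5.37 to -4.44 on the log2 scale, and a pseudocount of 10 in place of 1 gave -3.52. The step between 12 and 24 h carried most of it (log2 difference -2.82 ± 0.39, adjusted p = 0.000332). There Cacna1i and Cacna1b were the 2 pore genes called lower and 0 were called higher by limma, where 4.82% of all genes rose and 6.74% fell. At an unadjusted p under 0.05 there was 1 higher, Cacna1d, which edgeR and DESeq2 called. Between 24 and 36 h 0 pore genes were called by limma in either direction, and 1.11% of all genes rose and 1.55% fell. At an unadjusted p under 0.05 Cacna1i, lower, was the only one, and DESeq2 called it (adjusted p = 0.0389) while edgeR called 0. Leaving out 36 h replicate 2, the highest, also made it a call (adjusted p = 0.0196). Over the 4 times together limma's F test called Cacna1b, Cacna1d, Cacna1e, Cacna1h and Cacna1i, 5 of 7 tested, where 45.7% of all genes were called.

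Markers of nonpeptidergic nociceptors fell along with Cacna1i in culture. Of 6 markers, 5 fell at 36 h against 6 h (median log2 difference -4.10, against 0.02 over all genes tested), 5 at the step to 12 h and 5 at the step to 24 h. None was at 0 in any time group, and they summed to 22073 to 28105 at 6 h, 17132 to 20613 at 12 h, 12224 to 14066 at 24 h and 9260.2 to 11869 at 36 h. Mrgprd, a receptor that defines these cells, averaged 3765 ± 604 at 6 h, 1869 ± 266 at 12 h and 217 ± 19.4 at 24 h, and lay between 35.1 and 62.0 in the 36 h libraries. Of 12 neuron markers 7 fell and 1 rose at 36 h against 6 h, with sums of 90829 to 115225 at 36 h and 157689 to 179180.4 at 6 h. Markers of other neuron classes fell too, with 4 of 4 for C low-threshold mechanoreceptors (median log2 difference -1.46). Large-fibre neuron markers fell in 6 of 7 and rose in 1, and peptidergic nociceptor markers fell in 4 of 6 and rose in 1. Beside the rises of Cacna1d and Cacna1h, endothelial markers rose in 6 of 6, with sums of 4198 to 5574 at 36 h and 2362 to 3123 at 6 h. Macrophage markers rose in 4 of 6 and those of dividing cells in 3 of 5, with sums of 412 to 644 at 36 h and 251 to 262 at 6 h. The part of any of these cells in the culture changes of the pore genes was not tested.
Beside the lesion rises of Cacna1b and Cacna1d, 6 of 7 macrophage markers in the table rose, with sums of 2009 to 3209 after lesion and 922 to 1021 after sham. Fibroblast markers rose in 6 of 6, with sums of 10243 to 12378 after lesion and 7800.0 to 10125 after sham. Markers of peptidergic nociceptors fell in 5 of 6 and rose in 1, those of large-fibre neurons fell in 4 of 7, and those of nonpeptidergic nociceptors fell in 3 of 6 and rose in 1. Of the neuron markers 5 rose and 5 fell, and their sums overlapped, at 234783 to 270829 after lesion and 247104 to 267243 after sham. None of the macrophage, fibroblast or neuron markers was at 0 in either group, and the part of these cells in the lesion rises was not tested.

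**Figure D2:**
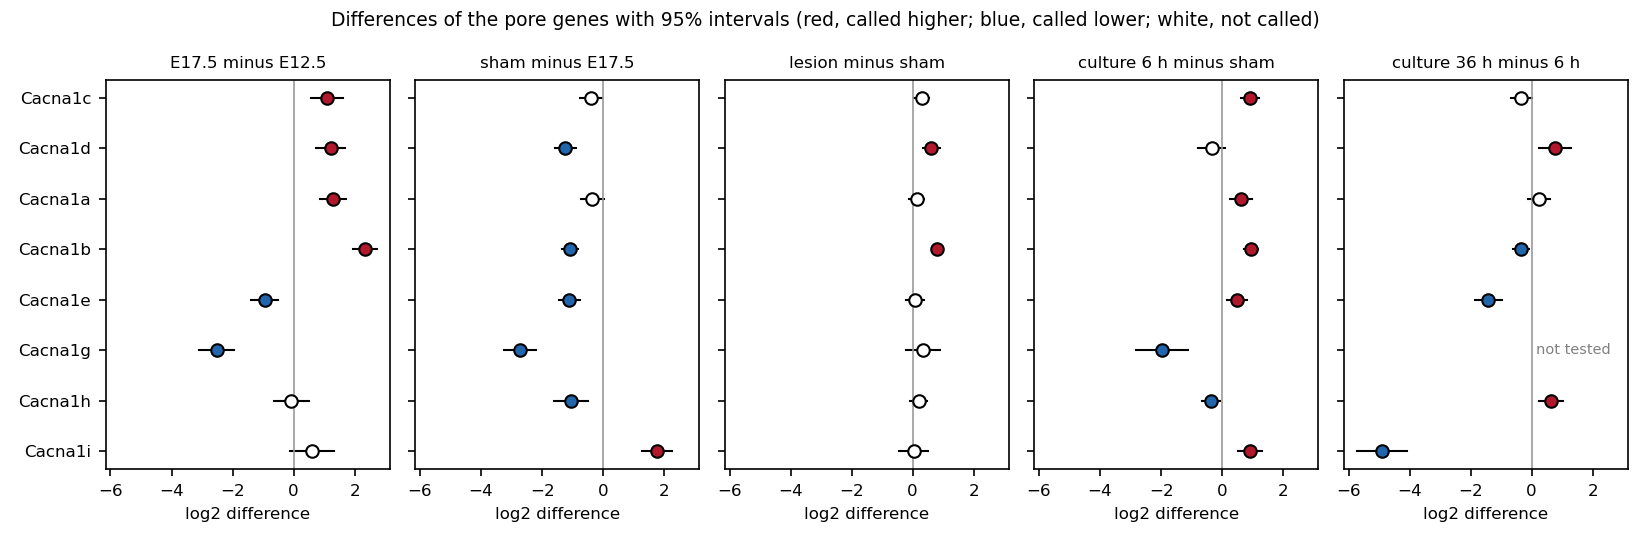
Log2 difference of each pore gene (point) with its 95% interval (line) in 5 comparisons from limma, with the later, operated or cultured group minus the earlier or sham group. Cacna1b is called in all 5, and Cacna1i reaches -4.90 at 36 h against 6 h.

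**Figure D3:**
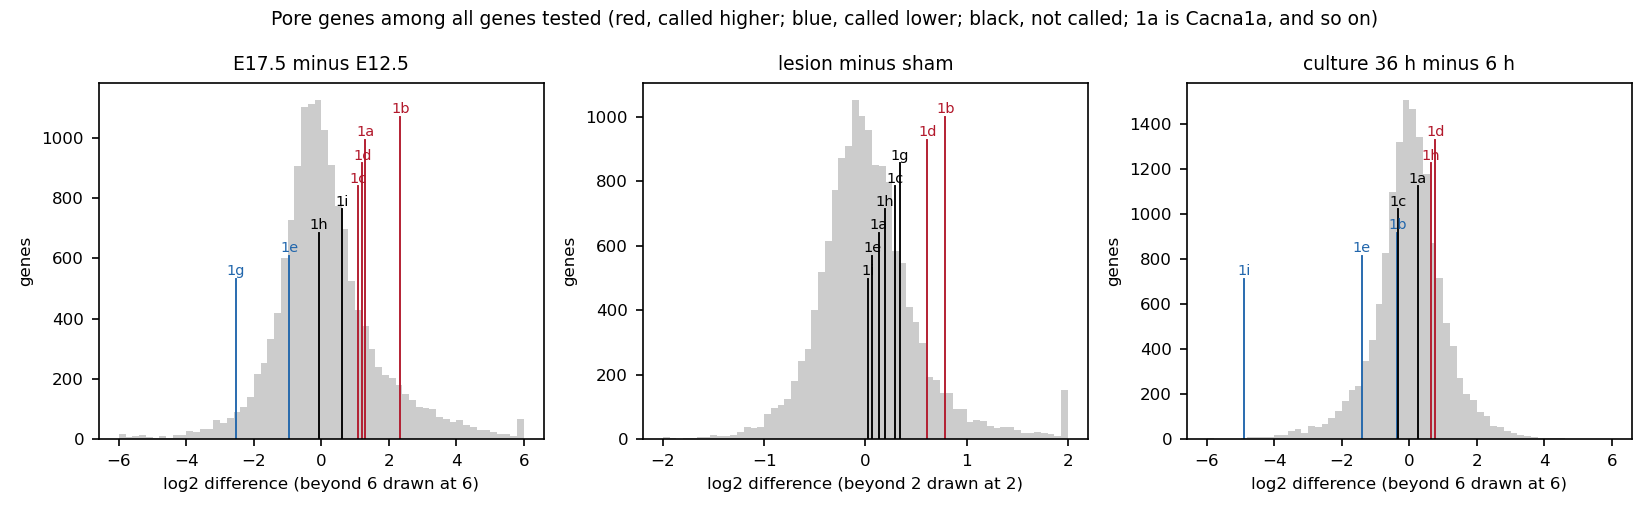
Distribution of log2 differences over all genes tested (grey bars, number of genes) with each pore gene as a line, at E17.5 against E12.5, after lesion against sham and at 36 h against 6 h. Cacna1b lies above 91.8% and 93.5% of genes in the first 2 of these, and Cacna1i lies at the lower end in culture.

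To compare levels between the genes, normalized reads were divided by the length of the union of annotated exons, from 9.76 kb for Cacna1h to 25.2 kb for Cacna1e. On this scale Cacna1b was the pore gene with the highest mean level in 7 of 8 groups, with 227 ± 10.0 reads per kb after lesion, 131 ± 11.9 after sham, 255 ± 17.3 at 6 h and 277 ± 28.4 at E17.5. At E12.5 it had 55.5 ± 12.9 reads per kb, below Cacna1h with 96.0 ± 9.80 and Cacna1g with 77.5 ± 27.1. Cacna1a had at most 54.9 ± 2.89 reads per kb, at 36 h, and at least 15.8 ± 3.24, at E12.5. Cacna1c had at most 27.6 ± 4.68 reads per kb, at 12 h, and Cacna1d at most 15.6 ± 1.75, at E17.5. With the longest transcript as length, the 12 h level of Cacna1c was 44.5 ± 7.53 reads per kb and the E12.5 level of Cacna1e was 47.9 ± 13.6, in place of 28.3 ± 8.05.
The 3 families took different shares of the summed reads per kb at each stage, which are given as descriptions with no test. T-type pores held 22.7%, 18.4% and 27.6% in the 3 E17.5 libraries, against 61.1%, 54.4% and 65.9% in the 3 E12.5 libraries. Cav2 pores held 70.1%, 73.4% and 66.0% at E17.5, against 34.3%, 40.5% and 27.9% at E12.5. The sum itself was 401 to 544 reads per kb at E17.5 and 251 to 314 at E12.5, without overlap.
After lesion Cav2 pores held 78.7%, 73.5% and 72.7%, against 68.5%, 70.2% and 68.8% after sham, and T-type pores 14.2%, 19.0% and 19.0%, against 23.1%, 21.3% and 22.8%. Neither pair of groups overlapped. Cacna1b alone made up 63.8% of the sum after lesion and 54.0% after sham. In culture the mean Cav2 share was 79.0% ± 0.686 at 6 h, 78.9% ± 1.16 at 12 h, 76.6% ± 1.26 at 24 h and 75.5% ± 2.12 at 36 h (SD). L-type pores never held more than 9.59% in any library. Shares of 1 sum are bound to each other, so a larger part for Cav2 means a smaller one elsewhere.

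**Figure D4:**
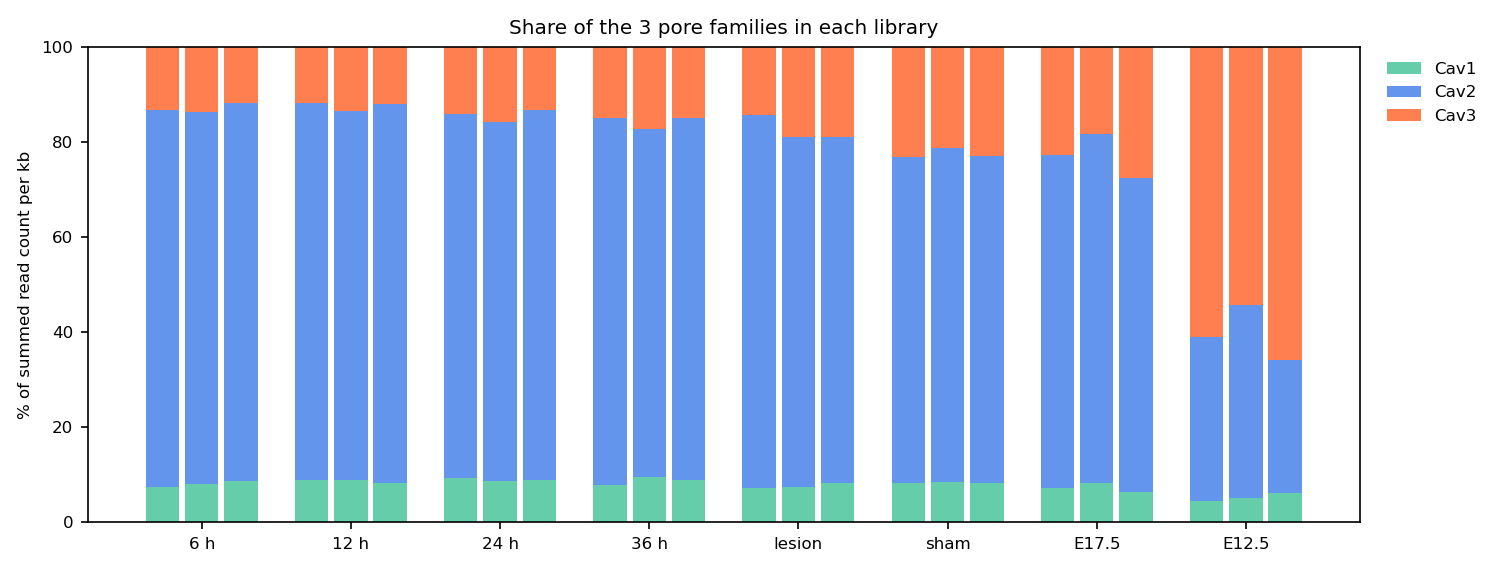
Share of each pore family in the summed normalized reads per kb of exon (stacked to 100%) in each of the 24 libraries, 3 bars per group. T-type pores (Cav3) take most of the sum at E12.5 alone, and Cav2 pores take most of it in all other groups.

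Other genes of calcium signalling were read from 6 lists, whose genes are counted as called by limma among those tested. A largest rise or fall of a list is the one among genes whose higher group mean was at least 100. Of the listed genes, Snap25 and Syt1 are also among the neuron markers and Pvalb among the large-fibre neuron markers. The part of the cell types described above in the differences of these lists was not tested in any comparison. Beside the counts at E17.5 against E12.5 stand 31.1% of all genes higher and 31.9% lower. There, 3 of 4 beta subunit genes rose, and 2 of 3 alpha2delta genes rose. Cacnb4, a beta subunit, averaged 1241 ± 304 at E17.5 and 278 ± 60.3 at E12.5 (log2 difference 2.15 ± 0.22, adjusted p = 4.68e-05). Stac, an adaptor of L-type channels, had the largest rise among regulators and partners, of which 16 of 23 rose and 2 fell, with 1156 ± 101 at E17.5 and 21.4 ± 7.33 at E12.5 (log2 difference 5.74 ± 0.24, adjusted p = 5.77e-07). Calcium-activated channels, buffers and kinases rose in 14 of 18 and fell in 2, and genes of other calcium entry and of calcium removal rose in 13 of 21 and fell in 1. Genes listed as gamma subunits by their Cacng names alone were split, with 2 of 6 higher and 2 lower. Whether their products act on calcium channels was not tested. Among the lower ones was Cacng4, with 79.4 ± 23.4 at E17.5 and 318 ± 110.4 at E12.5 (log2 difference -1.97 ± 0.32, adjusted p = 0.000771).

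After lesion, where 20.9% of all genes rose and 20.2% fell, the alpha2delta genes went both ways beside Cacna1b. Cacna2d1, a gabapentin-binding subunit, averaged 11377 ± 2016 after lesion and 3650.3 ± 404 after sham (log2 difference 1.63 ± 0.12, adjusted p = 4.1e-06). Cacna2d2 averaged 222 ± 29.4 after lesion and 324 ± 12.0 after sham (log2 difference -0.55 ± 0.11, adjusted p = 0.00126), and Cacna2d3 63.6 ± 10.6 after lesion and 106 ± 0.999 after sham (log2 difference -0.74 ± 0.16, adjusted p = 0.00198). Of the beta subunits, Cacnb1 rose (log2 difference 0.22 ± 0.08, adjusted p = 0.0489) and Cacnb4 fell (log2 difference -0.59 ± 0.10, adjusted p = 0.000469). Rem2, a small GTPase that inhibits high-voltage-activated channels, fell to 98.6 ± 4.36 after lesion, against 213 ± 2.48 after sham (log2 difference -1.10 ± 0.11, adjusted p = 7.71e-06). It was among 7 of 24 regulators and partners that fell, while 2 rose. Itpr1, a calcium release channel of the endoplasmic reticulum, had the largest rise, with 758 ± 140.0 after lesion and 181 ± 13.0 after sham (log2 difference 2.05 ± 0.12, adjusted p = 1.73e-07), among 6 of 20 genes of calcium entry and removal that rose and 5 that fell, shares near those of all genes. Calcium-activated channels, buffers and kinases rose in 4 of 18 and fell in 8, with Calb2, the calcium buffer calretinin, at 62.1 ± 9.69 after lesion and 244 ± 7.03 after sham (log2 difference -1.97 ± 0.14, adjusted p = 5.14e-07). The 5 gamma subunit genes tested had a median log2 difference of -0.17, without a call.

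In culture most of the called companions fell by 36 h, where 25.3% of all genes rose and 25.3% fell. Beta subunit genes fell in 3 of 4, led by Cacnb4, which averaged 1150.2 ± 57.1 at 36 h and 5866 ± 1135 at 6 h (log2 difference -2.33 ± 0.15, adjusted p = 1.39e-08). Cacna2d2 was the 1 of 3 alpha2delta genes that fell (log2 difference -1.77 ± 0.23, adjusted p = 1.26e-05). Kcnmb1, a beta subunit of the large-conductance calcium-activated potassium channel, had 116 ± 21.6 at 36 h and 1056 ± 172 at 6 h (log2 difference -3.17 ± 0.16, adjusted p = 9.52e-10), in a list where 11 of 18 fell and 2 rose. Regulators and partners fell in 13 of 24 and rose in 2, and Rem2 had the largest fall (log2 difference -2.19 ± 0.34, adjusted p = 8.66e-05). Itpr3 rose (log2 difference 1.45 ± 0.18, adjusted p = 1.03e-05) and Nalcn, a sodium leak channel, fell (log2 difference -1.53 ± 0.18, adjusted p = 4.5e-06) in the list of calcium entry and removal, of which 5 of 20 rose and 7 fell. At 6 h against sham, where 27.6% of all genes rose and 30.7% fell, the companions went both ways. Regulators and partners rose in 4 of 24 and fell in 9, calcium-activated genes rose in 6 of 18 and fell in 8, genes of calcium entry and removal rose in 5 of 20 and fell in 5, and gamma subunits rose in 1 of 5 and fell in 3. Beta and alpha2delta genes each had 1 higher and 1 lower. Lower at 6 h were Calb2 (log2 difference -3.16 ± 0.17, adjusted p = 1.71e-09), Cacng7 (log2 difference -1.07 ± 0.26, adjusted p = 0.00234), Orai1, the pore of store-operated calcium entry (log2 difference -0.96 ± 0.17, adjusted p = 0.000259), Calm3, a calmodulin gene (log2 difference -0.95 ± 0.09, adjusted p = 7.59e-07), and Cacna2d2 (log2 difference -0.59 ± 0.13, adjusted p = 0.000994). The 6 h cultures had more Cacnb4 (log2 difference 0.63 ± 0.12, adjusted p = 0.000431), more Cacna2d1 (log2 difference 0.52 ± 0.12, adjusted p = 0.00132) and more Gem, a small GTPase that inhibits calcium channels (log2 difference 1.92 ± 0.18, adjusted p = 4.95e-07). Against E17.5, 28.9% of all genes were higher after sham and 31.1% lower. Beta subunit genes rose in 3 of 4, and alpha2delta genes in 1 of 3 with 1 lower. Gamma subunits rose in 2 of 5 and fell in 2, and regulators and partners rose in 11 of 23 and fell in 8. Calcium-activated genes rose in 10 of 18 and fell in 5. Genes of calcium entry and removal rose in 8 of 21 and fell in 8. Kcnmb1 had the largest rise (log2 difference 4.49) and Akap5 the largest fall (log2 difference -3.91). Cacnb4 was higher (log2 difference 1.62 ± 0.16, adjusted p = 2.58e-05) and Cacna2d2 lower (log2 difference -1.54 ± 0.12, adjusted p = 6.16e-06). The sham comparisons with culture and with E17.5 share their sham libraries with the lesion comparison.

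Genes whose levels ran most like each pore gene over the 24 libraries were taken from 11739 genes with a mean of at least 50, by Pearson's r of log2(value + 1). These r values describe points that share groups and depth, and carry no test. For Cacna1b they were Sema4d (r = 0.954), Rtn1 (r = 0.952) and Npcd (r = 0.948). For Cacna1a they were Emp3 (r = 0.936), Mroh1 (r = 0.936) and Herc2 (r = 0.935), and for Cacna1e Fam84a (r = 0.955), Epha4 (r = 0.953) and Kcnmb2 (r = 0.950). The genes nearest to Cacna1c were Ppp1r13b (r = 0.950), B4galt5 (r = 0.909) and Slco2a1 (r = 0.909), and those nearest to Cacna1d were Dip2a (r = 0.878), B3gnt9 (r = 0.865) and Scn2a1 (r = 0.848). Cacna1g had Gli2 (r = 0.979), Wdr6 (r = 0.967) and Ina (r = 0.965), and Cacna1h had Grik5 (r = 0.973), Cul7 (r = 0.960) and Ppp1r26 (r = 0.938). Near to Cacna1i were Prkar2b (r = 0.925) and Adrbk2 (r = 0.911). Gli2, like Cacna1g, averaged most at E12.5, with 988 normalized reads, and fewest in culture, with 2.71 at 24 h.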

How the data were processed

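The deposited values are a signal per gene and library that the authors had scaled, each library by its own factor, as read from the values. Of 339603 values of up to 1000 reads, 100% were whole multiples of 1 step per library within a tolerance of 0.1 reads. The submitters' processing notes name TopHat and the build mm10. For the aligner's version, annotation, counting tool and choice of factors: not given in the sources used here. Each library started from 10 ng of RNA (TruSeq V2), per the labels' protocols. All 24 columns were matched to samples by their descriptions, with 0 left over.

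Normalized values were tested with limma 3.58.1 in R 4.3.3 (trend and robust eBayes) on log2(value + 1), a scale on which the change of low genes is understated. Genes entered a fit if 3 or more of its libraries reached a value of 10, and p-values were adjusted over all genes tested at a threshold of 0.05. The embryonic, operated and 12 culture libraries were fitted separately, and 6 h against sham and sham against E17.5 used 3 libraries each. The script was tested on simulated data first. The planned tests for raw counts became alternatives: edgeR 4.0.16 and DESeq2 1.42.0 on the recovered reads. For E17.5 against E12.5 edgeR called 4535 genes higher and 4747 lower, for lesion against sham 3101 and 2970, and for 36 h against 6 h 4131 and 3689. Other alternatives were the pseudocount, the filter, TMM rescaling, 1 fit of all libraries and leaving out each library.

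Members and gene lists were chosen with earlier results of these data known. All members are named, with, from each list and comparison, the largest called rise and fall whose higher mean was at least 100.0 (some of these are not printed) and, for each member, the 3 most alike genes, of which 1 is not reported here. Cacna2d2 after lesion and the levels of Mrgprd and Chdh were given outside that rule, after their values were seen. Positions and exon lengths are from GENCODE M21 (mm10).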

Additional observations from a re-analysis of the deposited data

How the results depend on the processing

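Of 785 differences of single pore genes recomputed under the alternatives, 725 kept their direction and their side of the threshold, 22 lost a call, 19 gained one and 19 reversed, and 0 called differences reversed. The reversals were of small differences without a call. E17.5 minus E12.5 of Cacna1h was 0.017 with DESeq2 (reported: -0.07). Leaving out 1 library gave ranges of -0.35 to 0.21 for that difference, -0.14 to 0.32 for lesion minus sham of Cacna1i and -0.011 to 0.19 of Cacna1e. For 12 h minus 6 h they were -0.17 to 0.17 for Cacna1a, -0.21 to 0.013 for Cacna1b, -0.051 to 0.21 for Cacna1c and -0.053 to 0.25 for Cacna1h. For 24 h minus 12 h of Cacna1e the range was -0.31 to 0.081, and for 36 h minus 24 h of Cacna1c -0.062 to 0.20.

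Counts of called pore genes changed as follows, and the cause was not tested. The 2 genes lower at 6 h than after sham became 1 without the filter, with DESeq2, with TMM rescaling and in 1 fit of all libraries (Cacna1h dropped out), and 0 to 2 without 1 library. The 1 gene lower at 12 h than at 6 h became 2 with edgeR and DESeq2 (Cacna1i was added), and 0 to 1 without 1 library. The 0 genes higher at 24 h than at 12 h became 1 with edgeR, DESeq2 and 1 fit (Cacna1d), and 0 to 1 without 1 library, and the 2 lower ones 1 to 3. The 0 genes lower at 36 h than at 24 h became 1 with DESeq2 and 1 fit (Cacna1i), and 0 to 1 without 1 library. The 2 genes higher at 36 h than at 6 h were 1 to 2 without 1 library and the 3 lower ones 2 to 3. Without 1 library there were also 5 to 7 in place of 5 lower after sham than at E17.5, 2 to 3 in place of 2 higher after lesion, 4 to 5 in place of 5 higher at 6 h than after sham and 4 to 6 in place of 5 over the 4 culture times. Cacna1g at 6 h against sham could not be tested without any 1 of the sham libraries.

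Over all genes, 36 h minus 24 h gave 166 higher and 232 lower, against 103 and 146 without the filter, 284 and 277 with edgeR, 506 and 573 with DESeq2, 312 and 527 in 1 fit of all libraries, and 33 to 81 and 34 to 187 without 1 library. Lesion minus sham gave 3043 and 2947, against 1541 and 1052 in 1 fit. For 12 h minus 6 h the reported 880 higher and 708 lower became 1094 and 1139 with DESeq2, and 477 to 1480 and 371 to 1138 without 1 library. For 24 h minus 12 h 723 and 1011 became 286 to 1072 and 445 to 1492. With the longest transcript as length, the mean Cav1 share lay between 6.34% and 11.9% over the groups, in place of 5.31% to 9.02%. No paired analysis was made, because the sample titles give a number per library but name no animal or preparation. Whether any libraries were paired is not known. Lesion and sham hold the same 2 series of numbers, and with a term for the series 3 pore genes in place of 2 were called higher after lesion (Cacna1c was added, as reported) and 0 lower.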
